A study of Mus musculus with 15 samples.

Results

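The genes of the 5 NF-kB subunits (Nfkb1, Nfkb2, Rel, Rela and Relb), of the 3 classical IkB inhibitors (Nfkbia, Nfkbib and Nfkbie) and of 2 nuclear IkB proteins (Nfkbid and Bcl3) were followed through antigen-primed CD8+ T cells with and without costimulation. The 10 genes were chosen by name from the pathway, not by their values, though earlier results of these data were known. Each of the 10 symbols was found among the 55536 genes with a GENCODE M21 identifier. All 10 had enough counts to be tested. None of the 10 was called different between the groups by edgeR, which called no gene of the 24262 tested. The libraries of the groups overlapped for each of the 10, and 5.6% of all genes tested had groups without overlap. Rel was the least abundant member in both groups. The level of several members spread widely among the Ag libraries, as did that of expressed genes at large. In Ag the median SD of the log2 level was 0.38 over the members and 0.47 over those genes. In Ag+Costim it was 0.24 and 0.12, and the difference in spread was not tested. Relb was lower relative to Nfkb2 in every Ag+Costim library than in every Ag library, although ratios that separated the groups were no more frequent among the members than among expressed genes at large.

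NF-kB is a family of dimeric transcription factors built from Rela, Rel, Relb and the products of Nfkb1 and Nfkb2, which are made as precursors and processed. In the canonical pathway, antigen receptor and costimulatory signals activate the IKK complex, whose phosphorylation of IkB proteins leads to their degradation and frees dimers such as Rela or Rel with the Nfkb1 product. In the alternative pathway, receptors of the TNF receptor family stabilise the kinase NIK (Map3k14), the Nfkb2 precursor is processed, and dimers with Relb enter the nucleus. OX40 and 4-1BB are receptors of that family and can engage both pathways. Several members, among them Nfkbia, Nfkb2 and Relb, are themselves NF-kB targets, so that the pathway feeds back on its own parts. RNA levels do not show the processing, degradation or movement of the proteins.

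The study asked how costimulation alters RNA in CD8+ T cells primed in vivo. OT-I T cells, whose receptor recognises the ovalbumin peptide SIINFEKL, came from Rag1-/- or Rag2-/- donors and were transferred into C57BL/6J recipients. Those in the Ag group received the peptide with rat IgG as control antibody, and those in the Ag+Costim group received it with agonist antibodies against CD134 (OX40) and CD137 (4-1BB). CD8+ CD45.1+ Vα2+ Vβ5+ cells were sorted from spleen and lymph nodes, on day 4 by the labels. The methods text gives a slightly shorter time. All donors carry the OT-I transgene (strain OT-1 Tg C57BL/6J in the labels), so that a single receptor is followed. The recipients keep their own lymphocytes, and a sort must remove them. The study used mice of both sexes, and their age is given only as a range over all animals, not per group. Each group had 5 libraries of poly(A) RNA, made with SMART-Seq v4 and Nextera XT. The Naive libraries were not analysed here. The labels do not tie libraries to animals, but the study describes them as biological replicates and counts mice per group.

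By GENCODE M21 on mm10, all 10 are protein-coding genes. The subunit genes lie on chromosome 3, 135584655 to 135691547 (Nfkb1, minus strand), chromosome 19, 46304320 to 46312385 (Nfkb2, plus) and 5637483 to 5648130 (Rela, plus), chromosome 11, 23736847 to 23770970 (Rel, minus) and chromosome 7, 19606217 to 19629438 (Relb, minus). The classical inhibitors lie on chromosome 12, 55489410 to 55492647 (Nfkbia, minus), chromosome 7, 28758251 to 28767512 (Nfkbib, minus) and chromosome 17, 45555703 to 45563169 (Nfkbie, plus). Nfkbid and Bcl3 are also on chromosome 7, at 30421732 to 30428746 (plus) and 19808462 to 19822770 (minus). Relb and Bcl3 thus lie near each other on chromosome 7, without adjoining. Other annotated genes overlap Nfkb1, Nfkb2, Nfkbib and Bcl3.

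Totals per library lay between 59.6 and 449.4 M (1e6) estimated counts in Ag, with replicate 3 the lowest and the next at 259.6 M, and between 332.3 and 639.1 M in Ag+Costim. Of the CD8 T cell markers, Cd8a stood at 346 to 680 CPM in Ag and 477 to 617 CPM in the Ag+Costim libraries, while Cd4 was at most 5.07 CPM in any library and the 4 CD4 T cell markers summed to at most 26.4 CPM. CPM are counts scaled to a common library total of 1e6 with TMM factors. The B cell marker Ms4a1 stood at 17.2, 0.239, 54.9, 20.9 and 0.277 CPM in Ag replicates 1 to 5 and at 1.64 to 5.25 CPM in Ag+Costim, and haemoglobin and other erythroid genes summed to 1103 CPM in Ag replicate 3. The 7 B cell markers used summed to 673 to 1331 CPM in Ag and 584 to 871 CPM in the Ag+Costim libraries, of which Ighm made up most, and Pax5 was at 0 in Ag replicates 2 and 5. The summed level of 18 cell cycle genes was 1437, 10268, 6551, 1555 and 11289 CPM in Ag replicates 1 to 5 and 10469 to 13226 CPM in Ag+Costim. Genes with a count numbered 48058, 51778 and 40441 in Ag replicates 1, 3 and 4, only 21779 and 20714 in Ag replicates 2 and 5, and 28727 to 30340 in Ag+Costim. The Ag libraries thus differed among themselves in depth, genes detected, cell cycle genes and markers of other cells. The labels name no batch. In RNA of sorted populations, fewer cells of a type and less RNA per cell cannot be told apart.

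Levels of different genes were compared per length, that is, as transcript counts divided by transcript length, summed per gene and scaled to the same total in every library. On that scale the members fell into 3 tiers that did not overlap in either group. The top tier held the inhibitor genes Nfkbia, with 148 ± 69.7 in Ag and 104 ± 22.9 (SD, n = 5 in each group) in Ag+Costim, and Nfkbib, with 78.5 ± 15.5 and 89.0 ± 4.39, and the subunit gene Rela, with 80.2 ± 20.2 and 78.0 ± 6.04. The libraries of these 3 genes overlapped with each other in both groups. Rela, the main transactivating subunit, never fell under 60.6 in Ag or 69.7 in Ag+Costim, and the highest value in the middle tier was 45.1 in Ag (Nfkbie) and 44.8 in Ag+Costim (Nfkb2).

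The middle tier ran from Nfkb2 with 30.7 ± 9.99 in Ag and 35.2 ± 6.31 in Ag+Costim, and Nfkb1 with 30.4 ± 6.04 and 30.0 ± 6.23, through Nfkbie with 29.3 ± 11.9 and 20.5 ± 3.31 and Relb with 24.9 ± 9.96 and 19.3 ± 4.91. It ended with the nuclear IkB genes Bcl3, with 20.3 ± 5.2 and 20.2 ± 7.96, and Nfkbid, with 17.6 ± 9.47 and 13.7 ± 1.69. Neighbours in this order overlapped in Ag. In Ag+Costim they overlapped as well, except that Nfkb1 (24.3 to 39.3) and Nfkbie (15.7 to 24.3) only met at their ends. Rel, which encodes the c-Rel subunit known from lymphocyte activation, stood alone at the bottom, with per-length levels of 1.36 to 8.51 in Ag and 2.63 to 3.66 in Ag+Costim, against at least 10.1 and 11.7 for the lowest library of any other member. When gene CPM was divided by the longest transcript instead, Nfkbia stayed at the top and Rel at the bottom, but Rela passed Nfkbib, Nfkb1 passed Nfkb2 and Relb fell below Bcl3 and Nfkbid.

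As a share of the summed per-length level of the 5 subunits, Rela took 47.2 ± 3.55% in Ag and 47.2 ± 3.37% in Ag+Costim. The share of Nfkb1 was 18.1% in each group, with SDs of 1.75 and 3.83. Nfkb2 took 17.8 ± 2.64% and 21.1 ± 1.98%, Relb 14.2 ± 1.82% and 11.5 ± 1.73%, and Rel 2.73 ± 1.13% and 1.98 ± 0.234%. The make-up of the subunit pool was therefore dominated by Rela in both groups, and the shares of each subunit overlapped between them. Among the 5 inhibitor genes, Nfkbia took 48.4 ± 9.43% in Ag and 41.6 ± 2.89% in Ag+Costim, Nfkbib 28.9 ± 10.7% and 36.5 ± 4.02%, and Nfkbie, Bcl3 and Nfkbid at most 9.75% each as group means. The 3 classical inhibitors summed to 1.5 ± 0.228 times the 5 subunits in Ag and 1.28 ± 0.118 times in Ag+Costim.

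**Figure D1:**
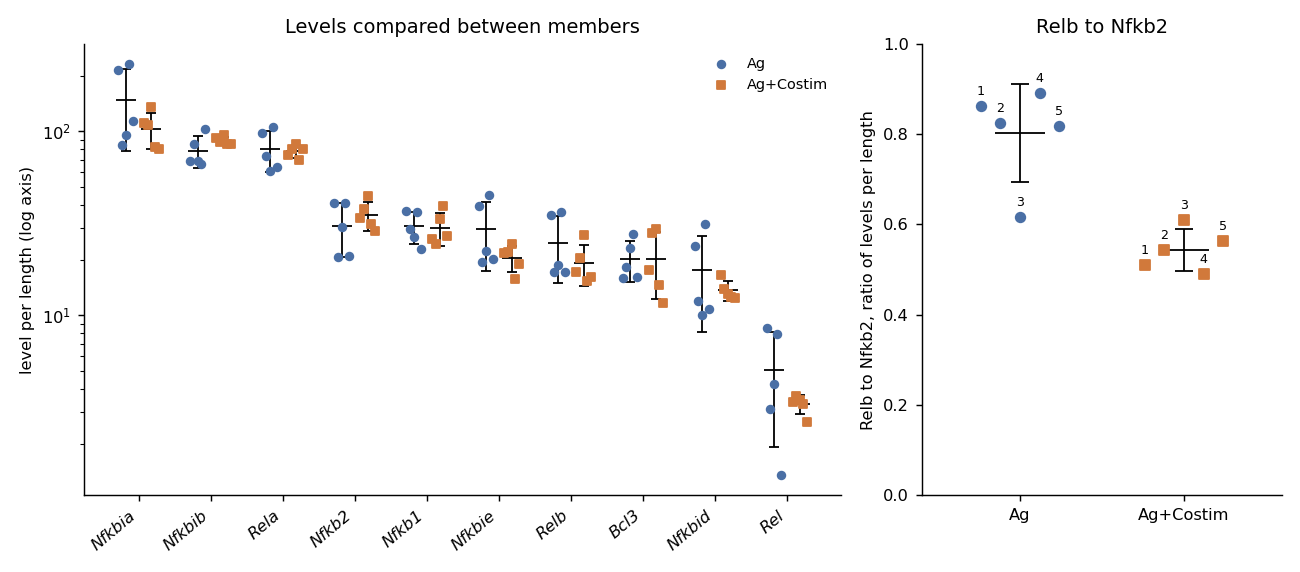
Left, level per length (log axis, same total in every library) of the 10 members in order of their mean, with circles for the 5 Ag and squares for the 5 Ag+Costim libraries and black bars for mean ± SD; Nfkbia, Nfkbib and Rela lie above the rest and Rel below. Right, the ratio of Relb to Nfkb2 on the same scale, numbered by replicate, lies between 0.617 and 0.892 in Ag and between 0.491 and 0.611 in Ag+Costim.

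The subunit genes of the canonical dimers were compared on the CPM scale, on which values of one gene can be compared between libraries but not those of different genes. Rela stood at 120, 140, 88.0, 137 and 141 CPM in Ag replicates 1 to 5 and at 130, 139, 152, 126 and 139 CPM in Ag+Costim replicates 1 to 5. Apart from the low Ag replicate 3, all libraries lay in one range. The edgeR log2 fold change of Rela, Ag+Costim minus Ag, was 0.13 (SE 0.15, Benjamini-Hochberg (BH) adjusted p = 0.595). Nfkb1 measured 63.8, 77.3, 49.7, 68.0 and 70.5 CPM in Ag and 62.4, 61.1, 84.9, 95.7 and 68.5 CPM in the Ag+Costim libraries. The groups overlapped, with the 2 highest libraries in Ag+Costim replicates 3 and 4, and its edgeR log2 fold change was 0.18 (SE 0.17, BH = 0.517).

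Rel values were 28.9, 16.3, 17.1, 29.2 and 8.32 CPM in Ag and 16.4, 17.7, 17.0, 16.4 and 12.7 CPM in the Ag+Costim libraries. Both the 2 highest libraries and the lowest one were Ag libraries, a 3.51-fold range in Ag against 1.4-fold in Ag+Costim (5.85 and 1.42 by total counts). With edgeR, the log2 fold change of Rel was -0.32 (SE 0.3, BH = 0.511), with a 95% confidence interval of -0.98 to 0.35.

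The genes of the alternative pathway had fold changes of opposite sign, neither of them past the threshold. Nfkb2, whose precursor holds Relb in the cytoplasm until it is processed, stood at 61.3, 47.2, 50.7, 70.5 and 52.3 CPM in Ag and at 68.6, 76.3, 91.2, 65.1 and 57.8 CPM in Ag+Costim. The 2 highest libraries were Ag+Costim replicates 2 and 3, and the 3 lowest were Ag libraries. Of the 10 members Nfkb2 had the lowest p in the edgeR fit, with a log2 fold change of 0.35 (SE 0.16, 95% confidence interval -0.01 to 0.71, BH = 0.273). Relb measured 34.6, 26.2, 22.3, 39.8 and 29.3 CPM in Ag and 24.2, 29.3, 39.2, 22.5 and 23.0 CPM in the Ag+Costim libraries. The groups covered nearly the same range, and its edgeR log2 fold change was -0.14 (SE 0.21, BH = 0.676).

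Although neither gene separated the groups, their ratio did. On the per-length scale, Relb to Nfkb2 was 0.862, 0.826, 0.617, 0.892 and 0.819 in Ag replicates 1 to 5 (0.803 ± 0.108, SD, n = 5). It was 0.511, 0.544, 0.611, 0.491 and 0.564 in Ag+Costim (0.544 ± 0.0468). Every Ag+Costim library was below every Ag library, by a small margin for Ag replicate 3 and a wide one for the rest. On the CPM scale, where gene length cancels within the comparison, the log2 ratio of Nfkb2 to Relb was 0.9 ± 0.16 in Ag and 1.39 ± 0.13 in Ag+Costim, again without overlap. On the opposite strand, Nfkb2 shares 1292 bases with AC114539.1, a gene at 14.6 CPM on average by total counts. It shares 299 bases with Psd, at 1.31 CPM. The library preparation does not mark strand, and the part of such reads in the Nfkb2 values was not tested.

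Of the 45 pairs that can be formed from the 10 members, 2 (4.44%) had CPM ratios that did not overlap between the groups, and both held Nfkb2. Over all pairs of genes with a mean of at least 10 CPM, 7.05% had ratios without overlap, so the count among the members was not above that of expressed genes at large. The other pair was Nfkb2 to Nfkbie, with CPM ratios of 1.26, 1.29, 1.59, 1.16 and 1.21 in Ag and 1.85, 1.99, 2.19, 2.37 and 1.78 in Ag+Costim. The log2 ratio of Nfkb2 to Nfkbie was 0.37 ± 0.18 in Ag and 1.02 ± 0.17 in Ag+Costim. These ratios were noticed in the data and no test was applied to them.

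Nfkbia, which encodes IkBα and is induced by NF-kB as a feedback inhibitor, stood at 154, 92.7, 81.0, 177 and 147 CPM in Ag and at 113, 110, 140, 86.3 and 81.6 CPM in Ag+Costim. Ag replicates 1 and 4 were the highest of all 10 libraries and Ag replicate 3 the lowest. The edgeR log2 fold change of Nfkbia was -0.3 (SE 0.24, 95% confidence interval -0.84 to 0.24, BH = 0.454). Nfkbie, which encodes IkBε, measured 48.6, 36.7, 31.8, 60.6 and 43.3 CPM in Ag and 37.1, 38.3, 41.7, 27.5 and 32.4 CPM in the Ag+Costim libraries. The order of the Ag libraries was similar to that of Nfkbia, with replicates 4 and 1 at the top and 3 at the bottom. For Nfkbie the edgeR log2 fold change was -0.32 (SE 0.19, BH = 0.326).

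Nfkbib, which encodes IkBβ, had another order of libraries within the Ag group. It stood at 39.2, 75.3, 47.2, 41.2 and 106 CPM in Ag and at 75.9, 71.6, 78.9, 71.8 and 70.3 CPM in Ag+Costim. Ag replicates 1, 3 and 4 lay below all Ag+Costim libraries and Ag replicate 5 above them, a 2.71-fold range against 1.12-fold in Ag+Costim (1.71 and 1.13 by total counts). With edgeR, the log2 fold change of Nfkbib was 0.25 (SE 0.27, 95% confidence interval -0.33 to 0.84, BH = 0.552). On the per-length scale, the ratio of Nfkbia to Nfkbib was 3.15, 0.991, 1.38, 3.46 and 1.11 in Ag and 1.21, 1.24, 1.43, 0.967 and 0.943 in Ag+Costim. Only in Ag replicates 1 and 4 did Nfkbia exceed Nfkbib by more than a factor of 3. The library preparation does not mark strand, and Nfkbib shares 778 bases with Sirt2 on the opposite strand, a gene at 79.6 CPM on average by total counts, so reads from the shared stretch cannot be assigned to either gene.

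The nuclear IkB genes were the least abundant inhibitors. Nfkbid, which encodes the nuclear protein IkBNS, measured 21.2, 17.0, 10.5, 30.5 and 17.8 CPM in Ag and 21.3, 17.8, 17.2, 16.7 and 16.0 CPM in the Ag+Costim libraries. The lowest and the highest library were both in Ag, and the edgeR log2 fold change was -0.12 (SE 0.24, BH = 0.754). Bcl3, which encodes a coactivator of dimers of the Nfkb1 and Nfkb2 products, stood at 13.1, 23.6, 21.8, 24.9 and 24.4 CPM in Ag and at 21.2, 33.1, 35.4, 17.9 and 13.8 CPM in Ag+Costim. It was the member with the widest spread in Ag+Costim, a 2.56-fold range, with replicates 2 and 3 above and replicates 4 and 5 below most Ag libraries. The edgeR log2 fold change of Bcl3 was 0.17 (SE 0.28, BH = 0.707).

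**Figure D2:**
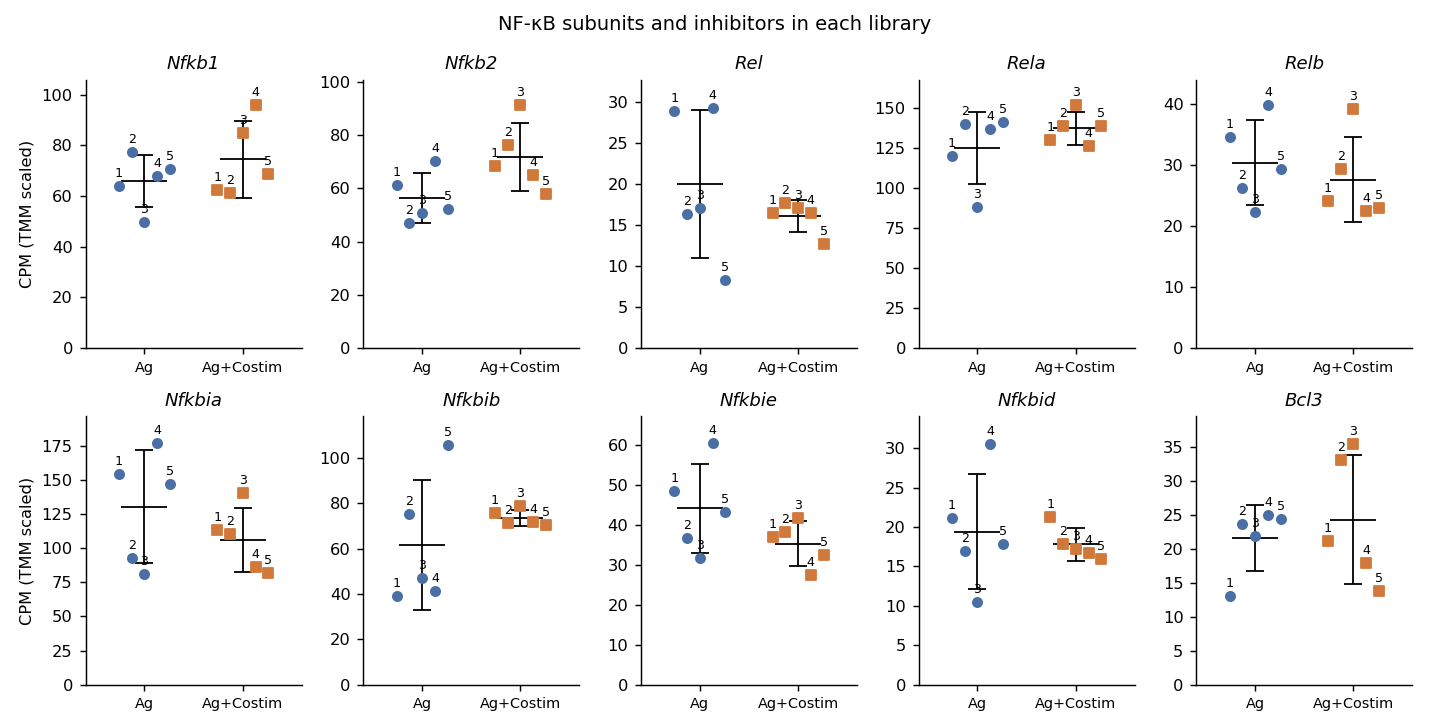
CPM (TMM scaled, linear axes from 0) of each member in the 5 Ag (circles) and 5 Ag+Costim (squares) libraries, numbered by replicate, with mean ± SD in black. The groups overlap in all 10 panels, and Ag replicates 1 and 4 are the 2 highest libraries for Rel, Nfkbia and Nfkbie.

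In the count of calls, edgeR called 0 of the 10 members, and 0% of the 24262 genes tested passed its BH threshold of 0.05. At an unadjusted p under 0.05 it again held 0 members, against 18.6% of all genes tested. DESeq2 called 0 members and 22.3% of the genes it gave an adjusted p, with Nfkbie the lowest of the 10 members at an adjusted p of 0.0823. Of the 8626 genes with a mean of at least 10 CPM, DESeq2 called 848 higher and 266 lower, a smaller share. In 0 of the 10 members did the groups separate without overlap, which 5.6% of all tested genes and 11.5% of those with a mean of at least 10 CPM did. The median log2 fold change was 0.13 for the subunits, -0.3 for the classical inhibitors and 0.02 for the nuclear IkB genes. Over all genes tested the median was -0.32, and over the 8626 genes with a mean of at least 10 CPM it was 0.24.

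Under limma's voom with a quality weight per library, 4 members passed a BH of 0.05, where 52.2% of all genes tested did. Nfkbib was called higher, with a log2 fold change of 0.8 (limma BH = 0.000136), in a test that called 25.8% of all genes higher. Rel was called lower with -0.78 (limma BH = 0.00275), Nfkbie with -0.56 (limma BH = 0.0129) and Nfkbia with -0.57 (limma BH = 0.0332), where 26.4% of all genes were lower. Within the Ag group these weights were 1.42, 0.0986, 0.508, 2 and 0.0656 for replicates 1 to 5, so that the Ag level in this fit was mainly that of replicates 1 and 4, and in Ag+Costim they ran from 1.7 to 3.35. In 3 of the 4 members called, Ag replicates 1 and 4 were the highest of the 10 libraries, and in Nfkbib they were the lowest. Share for share, 4 of 10 members did not exceed the background of this test over all genes. Of the 8626 genes with a mean of at least 10 CPM, it called 4975 higher and 1082 lower. The 3 of 10 members called lower were a larger share than that among these genes, which was not tested.

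**Figure D3:**
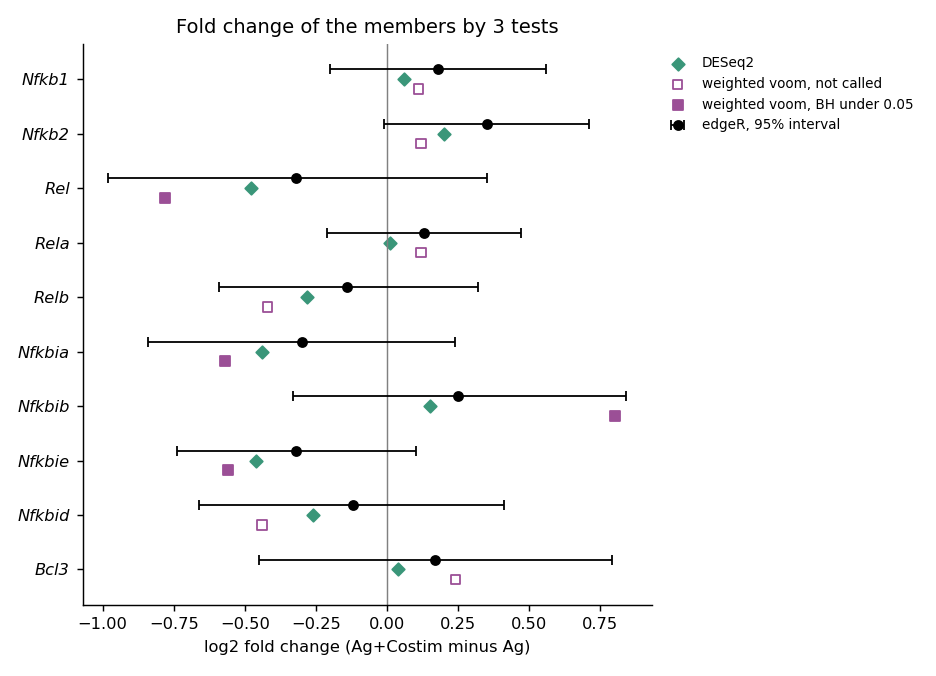
Log2 fold change of each member (Ag+Costim minus Ag) by edgeR with its 95% confidence interval (black), by DESeq2 (green diamonds) and by weighted voom (purple squares, filled at BH under 0.05). All edgeR intervals include 0, and the filled squares are Rel, Nfkbia, Nfkbib and Nfkbie.

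The scaling between libraries sets the zero of these comparisons. Total-count scaling moved the median log2 fold change of all tested genes from -0.32 to -0.65, and that of the members from 0 to -0.29. With TMM factors 5 members were higher and 5 lower in Ag+Costim, with DESeq2's size factors 4 and 6, and with total counts or upper quartile factors 2 and 8. Nfkb2 and Nfkbib were the members on the higher side under all 4 scalings, and Nfkb1, Rela and Bcl3 changed side. Under each of the 4 scalings the members' median lay above that of all tested genes but below that of genes with a mean of at least 10 CPM, the range in which all 10 members fall (0 against 0.24 with TMM, -0.14 against 0.12 with DESeq2's size factors, -0.29 against 0 with total counts and -0.24 against 0.02 with upper quartile factors). Ratios between members, such as Relb to Nfkb2, do not depend on the scaling.

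Several members shared an order of libraries within Ag. Ag replicates 1 and 4 were the 2 highest of the 10 libraries in Rel, Nfkbia and Nfkbie, a pattern held by 13.3% of the 8626 genes with a mean of at least 10 CPM. Within the Ag group they were the 2 highest in 6 members, Nfkb2, Rel, Relb, Nfkbia, Nfkbie and Nfkbid, against 19.1% of those genes. By total counts these numbers were 7 members (34.2% of genes) and 8 members (39.1%). Nfkbib went the other way, lowest in Ag replicates 1 and 4, and within Ag Bcl3 was lowest in replicate 1 and highest in replicate 4. The SD of log2 CPM had a median over the members of 0.38 in Ag and 0.24 in Ag+Costim, beside 0.47 and 0.12 over genes with a mean of at least 10 CPM. In Ag+Costim the SD of single members ran from 0.07 (Nfkbib) and 0.1 (Rela) to 0.58 (Bcl3), and these spreads were not tested against those of other genes.

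Values of other gene lists moved with the same libraries. The cell cycle genes were lowest in Ag replicates 1 and 4, where Rel, Nfkbia and Nfkbie were highest. The B cell markers Ms4a1 and Cd79a were above the other libraries but one in Ag replicates 1 and 4, at 17.2 and 20.9 CPM and at 23.2 and 32.6 CPM, but were highest in Ag replicate 3, at 54.9 and 93.3 CPM. Ighm, with 863, 626, 602, 1038 and 733 CPM in Ag replicates 1 to 5, was instead highest in Ag replicates 4 and 1 and lowest in 3, and the sum of the 7 markers was highest in Ag replicate 4. The 4 CD4 T cell markers summed to 18, 3.74, 8.79, 26.4 and 5.26 CPM in Ag replicates 1 to 5 and 3.16 to 8.2 CPM in Ag+Costim, and were thus also highest in Ag replicates 4 and 1, through Zbtb7b and Cd40lg. Within Ag, Nfkbia and Nfkbie were lowest in replicate 3 with TMM factors and in replicate 2 by total counts. The 10 myeloid markers summed to 57.4 to 171 CPM in Ag and 86.1 to 189 CPM in the Ag+Costim libraries. The part of cycling, of other cells or of depth in the members' values was not tested. Without Ag replicate 4, the edgeR log2 fold changes of Rel, Nfkbia and Nfkbie moved to -0.13, -0.15 and -0.17, and that of Nfkbid turned to 0.11, with no member called.

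**Figure D4:**
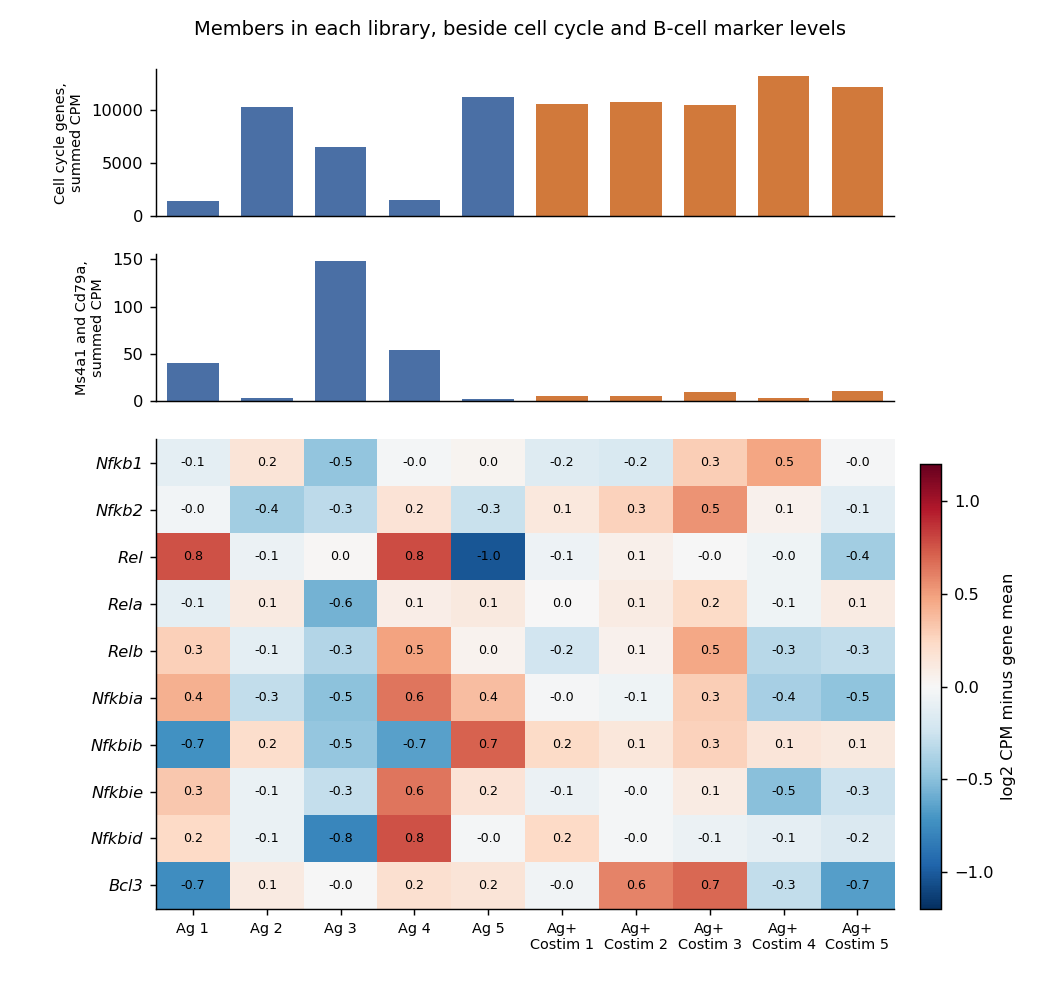
Top, summed CPM of 18 cell cycle genes and of Ms4a1 and Cd79a in each library; bottom, log2 CPM of each member minus its mean over the 10 libraries (red higher, blue lower). Ag 1 and Ag 4 combine low cell cycle levels with high Rel, Nfkbia and Nfkbie, and Ms4a1 and Cd79a, though not the summed B cell markers, are highest in Ag 3.

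To show what lies upstream of the genes that were high in the same libraries, promoter sequence before the RefSeq start of Nfkbia, Nfkbie and Rel is given here with that of Rela, whose level varied least within Ag+Costim among the subunits. RefSeq promoter windows (GRCm38.p6) were found for 8 of the 10 members, all but Nfkb1 and Relb. Each run is written 5′ to 3′ on the strand of the gene, and capitals mark matches to the kB consensus. The runs of Nfkbia and Nfkbie end at the base before the start. Those of Rel and Rela were shortened to 249 and 192 of the 250 bases searched, because an annotated exon begins before the RefSeq start. The printed runs lie at chr12:55492648-55492897 on the minus strand for Nfkbia, chr17:45555450-45555699 on the plus strand for Nfkbie, chr11:23770971-23771219 on the minus strand for Rel and chr19:5637291-5637482 on the plus strand for Rela.
Nfkbia: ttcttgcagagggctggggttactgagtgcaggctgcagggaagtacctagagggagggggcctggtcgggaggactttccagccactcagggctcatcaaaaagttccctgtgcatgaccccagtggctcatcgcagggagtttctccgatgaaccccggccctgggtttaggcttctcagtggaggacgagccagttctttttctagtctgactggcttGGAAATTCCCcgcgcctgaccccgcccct
Nfkbie: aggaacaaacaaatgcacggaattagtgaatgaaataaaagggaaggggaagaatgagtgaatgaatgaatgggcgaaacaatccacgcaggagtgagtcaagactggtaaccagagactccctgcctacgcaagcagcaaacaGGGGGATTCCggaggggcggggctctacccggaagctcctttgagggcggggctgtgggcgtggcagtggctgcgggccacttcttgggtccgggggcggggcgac
Rel: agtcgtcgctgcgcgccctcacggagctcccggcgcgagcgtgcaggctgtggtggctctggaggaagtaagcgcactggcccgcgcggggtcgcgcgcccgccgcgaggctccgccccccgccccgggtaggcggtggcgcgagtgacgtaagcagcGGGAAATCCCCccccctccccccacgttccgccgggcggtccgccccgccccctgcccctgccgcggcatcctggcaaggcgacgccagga
Rela: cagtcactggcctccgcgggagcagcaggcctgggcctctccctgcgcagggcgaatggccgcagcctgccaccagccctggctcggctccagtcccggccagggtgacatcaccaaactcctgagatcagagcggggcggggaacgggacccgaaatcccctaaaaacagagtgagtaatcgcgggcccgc

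The kB consensus, the 10-letter sequence bound by NF-kB dimers, was searched on both strands in the 250 bases before each start. A match was held by 7 of the 12 member windows and by 5 of the 8 members with a window, against 2382 of all 32851 windows (7.25%). In Nfkbia the match was GGAAATTCCC at positions -29 to -20, and in Nfkbie GGGGGATTCC at -106 to -97. The window of Rel held 2 overlapping matches, GGGAAATCCC and GGAAATCCCC, between -92 and -82. Nfkbid held GGGACTTCCC at -226 to -217 and GGAATTCCCC at -181 to -172 in 1 of its 3 windows, and each of the 3 windows of Nfkb2 had a match, the one nearest to a start being GGGGCTTTCC at -11 to -2. Windows of Rela, Nfkbib and Bcl3 held none. A match describes letters and is neither a bound site nor a cause, and windows without one may hold other forms.

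Likeness of pattern was measured as the root mean square (RMS) difference of log2 CPM, after each gene's mean was subtracted, over the 10 libraries and the 8626 genes with a mean of at least 10 CPM. The closest neighbours were Zfp384, Rap2b and Stat3 for Nfkb2 (RMS 0.106, 0.127 and 0.129), Fam208b, Arid4b and Ncoa3 for Rel (0.122, 0.134 and 0.145) and Irf2bp2, Pip4k2a and Ier5 for Relb (0.116, 0.121 and 0.126). Nfkbia lay closest to Irf9, Gsdmd and Idnk (0.123, 0.136 and 0.136), and Nfkbie closest to Nudt18, Oaz2 and Gsdmd (0.087, 0.09 and 0.094), so that Gsdmd stood on both lists. Nfkbib had very near neighbours in Psmb8, Jagn1 and Mrpl36 (0.058, 0.066 and 0.068), as had Rela in Pmm2, Chmp1a and Usp21 (0.06, 0.062 and 0.063). Around Nfkb1 were Snap47, Ncln and Xlr4c (0.129, 0.148 and 0.154) and around Nfkbid Zfp810, Pdlim7 and Vamp2 (0.114, 0.121 and 0.121). Bcl3 had no close neighbour, the nearest being Cited2, Klhl21 and Btbd1 (0.238, 0.244 and 0.249). No member was among the 3 nearest genes of another member.

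Transcript usage of 9 members was tested with edgeR's diffSpliceDGE on the deposited transcript counts, Rel having a single annotated transcript. None was called, a gene being called at a BH under 0.05 with a change of mean share over 10 percentage points, where 0.536% of the 10441 genes tested were. At an unadjusted p under 0.05 there were 2 members, Nfkb1 and Nfkb2, against 11.4% of all genes. Of the 54 annotated member transcripts 41 were tested, and the share of 1 of them (2.44%) did not overlap between the groups, beside 2.49% of all transcripts tested. It was Nfkb2-204, a minor coding transcript at 1.31 to 3.51% of the Nfkb2 counts in Ag and 0.693 to 1.09% in Ag+Costim.

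Nfkb1 counts lay mainly on the coding transcript Nfkb1-201, with 75.7, 80.8, 63.7, 75.4 and 82.7% in Ag replicates 1 to 5 and 81.0, 86.3, 88.4, 81.3 and 90.2% in Ag+Costim. The groups overlapped only through Ag replicate 5, and Ag replicate 3 was the lowest. The means were 75.7 ± 7.41% and 85.4 ± 4.16% (SD, n = 5), a difference that diffSpliceDGE of edgeR did not call (BH = 0.34). Transcripts of Nfkb1 annotated as retaining an intron took 21.8 ± 8.33% of its counts (SD, n = 5) in Ag and 11.4 ± 3.9% in Ag+Costim.

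Nfkb2 counts were shared mainly by 2 coding transcripts. Nfkb2-201 took 49.3, 60.3, 70.9, 16.0 and 81.5% in Ag and 70.9, 68.8, 76.3, 67.8 and 77.9% in Ag+Costim. The Ag libraries spread around the narrow Ag+Costim range, with replicate 4 far below it. Its longer alternative Nfkb2-206 took 44.5, 34.4, 24.7, 66.2 and 9.67% in Ag and 22.2, 22.0, 17.4, 22.6 and 19.8% in Ag+Costim, and was therefore highest where Nfkb2-201 was lowest. The difference of the mean share of Nfkb2-201 was 16.8 percentage points (edgeR diffSpliceDGE BH = 0.425), and without Ag replicate 4 it was 6.87.

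One transcript of Nfkb2 was seen in a single group. Nfkb2-208, annotated as a target of nonsense-mediated decay, was listed at 0 estimated counts in all 5 Ag libraries and at 591, 1621, 1065, 1689 and 0 in Ag+Costim replicates 1 to 5. Its share of the Nfkb2 counts was 2.79, 5.05, 2.0, 7.11 and 0.0% in Ag+Costim. Ag+Costim replicate 5 thus resembled the Ag libraries, and the groups overlapped. In Ag, 0 of 88473 estimated counts on Nfkb2 allows a share of up to 0.00339%, a limit that covers counting error only, while the counts themselves are estimates of the authors' assembly software. The transcript was too rarely present to be kept by the filter when all 10 libraries were fitted. It was kept in the fits without any 1 Ag library and in the fit without Ag+Costim replicate 5, and in these 6 fits Nfkb2 had an edgeR BH between 5.29e-17 and 0.00167 and was called in 5, the share limit being missed without Ag replicate 4. Of all genes, these 6 fits called from 82 of 10891 (without Ag+Costim replicate 5) to 400 of 11010 (without Ag replicate 5). With all 10 libraries 56 of 10441 were called. In the 4 fits without another Ag+Costim library the transcript was not kept, and the BH of Nfkb2 was 0.726 to 0.898. A call on the transcripts of Nfkb2 therefore depended on whether this 1 transcript was included.

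**Figure D5:**
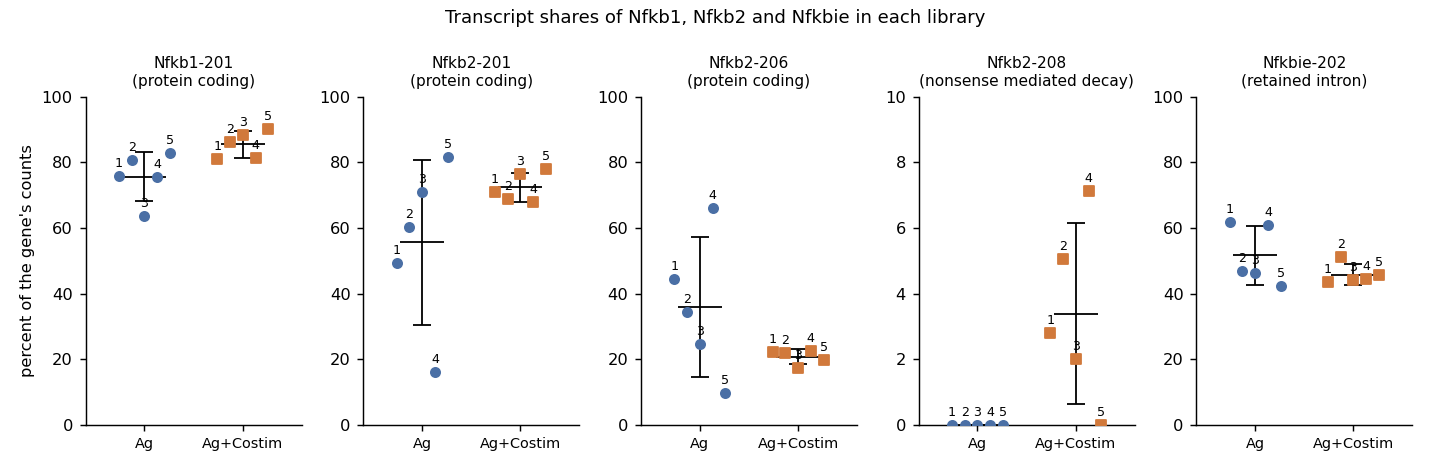
Percent of the gene's estimated counts on 5 transcripts in the 5 Ag (circles) and 5 Ag+Costim (squares) libraries, numbered by replicate, with mean ± SD in black; the axis for Nfkb2-208 ends at 10 and the others at 100. Nfkb2-201 and Nfkb2-206 mirror each other within Ag, and Nfkb2-208 lies above 0 in 4 of 5 Ag+Costim libraries and in no Ag library.

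Nfkbie was unusual among the members in that a transcript retaining an intron carried about as many counts as its coding transcripts together. Nfkbie-202 took 61.8, 47.0, 46.4, 60.9 and 42.4% in Ag and 43.5, 51.2, 44.0, 44.5 and 45.6% in Ag+Costim. The groups overlapped, and Ag replicates 1 and 4 were again the highest libraries. The coding transcripts Nfkbie-201 and Nfkbie-203 took 20.6 ± 10.2% and 27.7 ± 15.1% in Ag and 20.8 ± 5.76% and 33.5 ± 7.64% in Ag+Costim (edgeR diffSpliceDGE BH = 1 for the gene). Relb was divided between Relb-202, with 73.7 ± 14.9% in Ag and 70.4 ± 7.93% in Ag+Costim, and Relb-201, with 18.5 ± 12.3% and 22.4 ± 7.47%. Nfkbid was divided between Nfkbid-203, with 73.2 ± 13.3% and 74.4 ± 11.6%, and Nfkbid-201, with 24.8 ± 14.0% and 21.5 ± 8.22%. The remaining members used 1 transcript almost alone, with mean shares of at least 99.0% for Rela-201, Nfkbia-201 and Bcl3-201. Nfkbib-202 had 96.8% in Ag and 95.7% in Ag+Costim.

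The deposited splicing table gives, for each splicing event, 1 percent-spliced-in (PSI) value per group, a fraction of reads that include the segment, with the libraries already combined, so no test over libraries was possible. It held 112 events in the 10 members, of which 101 were core exons. None met the 2 criteria of the study's methods together, which ask for a Whippet probability above 0.9 and PSI values that differ by more than 0.05. Over the whole table, 1.05% of 138940 events met them. A PSI difference over 0.05 was reached by 2 of the 112 events (1.79%), against 11.9% of all events. Both belonged to the tandem 3' end of Nfkb1 (mm10). The distal segment (chromosome 3, 135584655 to 135585277, minus strand) was included at a PSI of 0.960 with antigen alone and 0.865 with costimulation. The adjoining proximal segment, 135585278 to 135585515, had 0.040 and 0.135. The median absolute PSI difference was 0.0013 over the member events and 0.0047 over all events.

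In the other members the largest PSI differences were small. A core exon segment of Relb at chromosome 7, 19622926 to 19622934, went from 0.986 in Ag to 0.945 in Ag+Costim and was the only member event past the probability limit alone. The largest difference was 0.025 in Nfkbid, in an alternative first exon with PSI values of 0.038 in Ag and 0.013 in Ag+Costim, and 0.024 in Rel. It was 0.015 in Bcl3, 0.011 in Rela, 0.010 in Nfkbib and in Nfkbie, 0.002 in Nfkb2 and 0.000 in Nfkbia. The exons of the members were thus joined in nearly the same way in both groups by this table.

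The members were set beside 62 other genes of the pathway in 4 lists, all of which were tested. By edgeR 0 of the 62 passed the BH threshold, at an unadjusted p under 0.05 there were 10 higher and 2 lower, and by DESeq2 6 were higher and 3 lower. Over all genes the share was 18.6% at an unadjusted p under 0.05 and 22.3% by DESeq2, so neither count stood clear of the background. Of the 8626 genes with a mean of at least 10 CPM, 1746 were higher and 243 lower at an unadjusted p under 0.05, and 848 higher and 266 lower by DESeq2. Median log2 fold changes were 0.23 for the 14 receptors and adaptors, 0.13 for the 10 kinases, 0.11 for the 16 ubiquitin and other regulators and 0.2 for the 22 target genes, beside 0.24 for genes with a mean of at least 10 CPM. In 5 of the 62 genes, Traf6, Chuk, Tbk1, Myc and Irf4, the lowest Ag+Costim library exceeded the highest Ag library. Groups without overlap were found in 11.5% of genes with a mean of at least 10 CPM, and 976 of those 8626 genes were higher and 19 lower, so the count among the pathway genes was not above the background.

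Upstream, Traf6, an adaptor ubiquitin ligase of the canonical pathway, stood at 29.9, 33.3, 29.4, 29.3 and 25.4 CPM in Ag and at 49.5, 41.2, 42.5, 52 and 45.4 CPM in Ag+Costim. It had the lowest BH of the 62 genes, with an edgeR log2 fold change of 0.65 (SE 0.12, BH = 0.134). Chuk, which encodes the kinase IKKα that acts on the Nfkb2 precursor, measured 60.2, 85.4, 67.7, 67.5 and 58.6 CPM in Ag and 103, 99.2, 88.2, 104 and 112 CPM in the Ag+Costim libraries. All 5 Ag+Costim libraries lay above all Ag libraries for both genes, but neither passed the edgeR threshold (Chuk log2 fold change 0.58, SE 0.14, BH = 0.154). DESeq2 called both, with adjusted p of 0.0033 for Traf6 and 0.00937 for Chuk, and Tbk1 with 0.0152. Tbk1 and Map3k7, kinases upstream of or related to IKK, had log2 fold changes of 0.43 each, Fbxw11, a component of the ligase that marks IkB proteins, 0.41, and Ripk1 and Traf2 0.31 and 0.35. Btrc, the sister gene of Fbxw11, had -0.21 and was called lower by DESeq2 (adjusted p = 0.0211). Otulin, a deubiquitinase of linear chains, had 0.35.

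Among the target genes, Myc had 61.1 ± 14.3 CPM in Ag and 101 ± 4.78 CPM in the Ag+Costim libraries (edgeR log2 fold change 0.72, SE 0.16, BH = 0.149). Irf4, a transcription factor of activated lymphocytes, had 17.0 ± 5.21 and 31.0 ± 5.23 CPM (0.86, SE 0.25, edgeR BH = 0.201). For Bcl2l1, which encodes the survival protein Bcl-xL, the values were 34.4 ± 9.76 and 50.1 ± 4.21 CPM (0.54, SE 0.19, edgeR BH = 0.245). DESeq2 called these 3 genes higher, with adjusted p of 0.00113 for Myc, 0.0278 for Irf4 and 0.049 for Bcl2l1. In the same list of 22 target genes it called 2 others lower. Myc, Irf4 and Bcl2l1 are induced by other factors too. As in Rel and Nfkbia, Ag replicates 1 and 4 were the 2 highest libraries in several pathway genes. Among them was the kinase gene Ikbke, chosen after its values were seen. Ikbke had 223, 104, 80.0, 255 and 75.7 CPM in Ag and 75.9 to 119 CPM in the Ag+Costim libraries. Of the genes with a mean of at least 10 CPM, 13.3% had these 2 libraries highest.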

How the data were processed

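Poly(A) RNA of sorted CD8+ T cells was measured in 5 Ag and 5 Ag+Costim libraries, out of 15 libraries in the labels. The authors aligned reads to mm10 with HISAT2 2.1.0, sorted them with SAMtools 1.9 and derived counts with StringTie 2.1.0. The deposited gene and transcript tables hold estimated counts (expected counts) rounded to whole numbers, without normalization, and their totals are not numbers of reads. The splicing table that the authors deposited holds 1 fraction per event and group, the PSI from Whippet with libraries combined. The probability in the same deposited table is a score, used here only as a threshold and not printed. The groups' difference column in that table was not used.

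Identifiers matched GENCODE M21 in all 55536 genes. A further 26248 numbered entries (not gene identifiers, holding 0.05 to 0.31% of counts per library) and 97 spike-in or other entries at 0 were left out. The 45 pairs of libraries held no identical pair.

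Genes were tested with edgeR 4.0.16 (filterByExpr, TMM factors, robust quasi-likelihood test) in R 4.3.3, with BH adjustment over the 24262 genes tested and a threshold of 0.05. DESeq2 1.42.0 and limma 3.58.1 (voom with library weights), other scalings, no filter, the replicate number as a block and leaving out each library were alternatives. Transcript usage was tested with edgeR's diffSpliceDGE (likelihood ratio fit, gene-level Simes p) over 10441 genes. A quasi-likelihood version was added after the data were seen. The edgeR gene test with and without the replicate block, DESeq2, voom and the likelihood ratio fit of usage were tested on simulated data with planted changes. The simulated libraries had the same spread in both groups, and the planted expression changes were larger than those of the members. How the tests behave with the uneven Ag libraries was therefore not shown.

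The 10 members and the pathway and marker lists were chosen with earlier results of these data known. One marker of these lists is not reported here. All members are named. From each pathway list, the 3 genes with the lowest unadjusted p and at least 10 CPM in the higher group are named. From transcripts, those with a mean share of at least 10% are named, and from events, the one with the largest PSI difference in each member. Other features named are said to be chosen after their values were seen, or come from counts of 5 or fewer.

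Replicates with the same number were checked for pairing. The correlation of their deviations from the group means was 0.11, -0.02, -0.06, -0.1 and 0.03 for replicates 1 to 5, so the numbers were not taken to pair libraries.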

Additional observations from a re-analysis of the deposited data

Results flagged for a closer look

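Among 58 sets of 5 libraries (CPM, transcript shares and ratios of the members in each group), 7 held a library set apart by Dixon's test. Chance gives about 1 in 20. Of the 20 sets of CPM values, 2 did. Rel stood at 12.7 CPM in Ag+Costim replicate 5, where the others lay between 16.4 and 17.7. Bcl3 stood at 13.1 CPM in Ag replicate 1, with the others at 21.8 to 24.9.

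In Ag+Costim replicate 4, Relb-201 took 9.24% of the Relb counts against 24.1 to 27.4% in the other libraries of the group, and Relb-202 took 84.3% against 64.1 to 68.2%. These are the same counts seen from either transcript. Nfkbie-202, the transcript with a retained intron, took 51.2% in Ag+Costim replicate 2 against 43.5 to 45.6%. Bcl3-201 took 96.8% in Ag replicate 3, the library with the lowest depth, against 99.3 to 99.9%. The per-length ratio of Relb to Nfkb2 was 0.617 in Ag replicate 3 against 0.819 to 0.892 in the other Ag libraries, and this library lay closest to the Ag+Costim range.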

How the results depend on the processing

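In all fits of edgeR, with every scaling, without the filter, with the replicate block and without each library, 0 members were called, and DESeq2 also called 0. Voom with library weights called 4. The 62 pathway genes had 0 calls in the edgeR fits, 9 by DESeq2 and 34 by weighted voom. Over all genes, DESeq2 called 22.3% and weighted voom 52.2%, so neither the member nor the pathway counts stood clear of the background. Direction changed sign, never with a call, for Nfkb1 (-0.1 with total counts, -0.05 with upper quartile factors), Rela (-0.0 with DESeq2's size factors, -0.14 with total counts, -0.1 with upper quartile), Bcl3 (-0.08 and -0.06 with the latter scalings), Relb (0.14), Nfkbid (0.12) and Btrc (0.15) without the filter, and Nfkbid (-0.28 to 0.11 when 1 library is left out, the upper value without Ag replicate 4). Leaving out 1 library at a time gave between 0 and 1 members called in transcript usage, the 1 being Nfkb2. Of all genes, the same fits called from 70 of 10877 (without Ag+Costim replicate 3) to 400 of 11010 (without Ag replicate 5). With the replicate block 0 members were called in expression and 0 in usage. The added quasi-likelihood fit of usage also gave 0, and called 31 genes against 56. limma's diffSplice called 145 genes and 0 members, a filter of at least 50 counts called 38, and dropping the share limit called 86. The share of Rela among the subunits, 47.2% over the 10 libraries, was 51.9% with gene CPM per longest transcript. There were 474 alternatives for fold changes of single genes and for transcript shares. In 21 a fold change passed the threshold newly (with DESeq2 or weighted voom), and in 11 a fold change changed sign. The other 442 counted as unchanged, which for a transcript share only meant a shift smaller than the larger group SD. Some of these shares changed sign, such as the difference of Relb-201, 3.96 percentage points with all libraries and -0.66 without Ag replicate 3. Counts of 0 in edgeR fits that called no gene at all say nothing about stability.

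The tables give no error for the split of counts between transcripts. Depth limits Ag replicate 3 most. The per-group PSI values have no error.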
